A study of Mus musculus with 6 samples.

Results

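The Notch receptors and their ligands were examined in brain microvessels, and the 9 genes were taken from the 23183 gene symbols of each library by symbol alone: the receptors Notch1, Notch2, Notch3 and Notch4, and the ligands Dll1, Dll3, Dll4, Jag1 and Jag2. Microvessel RNA from 3 WT and 3 TEKCRIF1 KO mice on a C57BL/6 background was sequenced, with 1 library per mouse. The WT mice carried TEK-cre with intact Crif1 (Crif1+/+), and the KO mice carried the same TEK-cre with Crif1 flanked by loxP sites (Crif1 flox/flox), so that both groups shared the Cre transgene. Tek, whose promoter drives this Cre, encodes a receptor of endothelial cells and of some blood-forming cells, and Crif1 (Gadd45gip1) encodes a protein of the mitochondrial ribosome that is needed to assemble the complexes of oxidative phosphorylation. The mice received no treatment, their age is not given in the sources used here, and cells of the vessel wall in which the Cre is not active kept their Crif1. The comparison of KO with WT asked how gene expression in these vessels differed when endothelial mitochondria were impaired.

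Notch receptors are single-pass membrane proteins that are activated by ligands of the Delta-like and Jagged families on a neighboring cell. Binding leads to cleavage by ADAM proteases and γ-secretase, and the freed intracellular domain enters the nucleus, joins the DNA-binding protein RBPJ and a Mastermind coactivator, and turns on genes such as those of the Hes and Hey families. In blood vessels, Notch1 and Notch4 are best known from endothelial cells, Notch3 from pericytes and smooth muscle cells, Dll4 from arterial and sprouting endothelial cells, and Jag1 from both endothelial and mural cells.

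Values are FPKM, fragment numbers divided by exon length and by sequencing depth, so levels of different genes can be set side by side. FPKM does not correct for GC content, which differs between the members (48.77% for Jag1 and 61.87% for Jag2). Comparisons of levels between genes were not corrected for it and carry this limit. Fold changes are differences in log2(FPKM + 1) between KO and WT from limma, fitted on the 14247 genes whose mean reached 1 FPKM. Adjustment was by the Benjamini-Hochberg method over all 14247. For single genes the text gives limma's adjusted p and says where the unadjusted p was under 0.05. 8 of the 9 members passed this filter and Dll3 did not. With 3 mice against 3, the exact two-sided permutation test used for single values cannot give a p below 0.1.

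The deleted gene was lower in every KO library. Gadd45gip1 was at 18.8, 15.3 and 16.5 FPKM in WT and at 10.8, 7.54 and 10.4 FPKM in KO, a log2 fold change of −0.77 (SE 0.22, limma adjusted p = 0.841, unadjusted p under 0.05). The estimated depth was 6500000 to 11900000 fragments per library, with KO 2 the shallowest, and 3 fragments on a transcript of 1 kb corresponded to 0.252 to 0.461 FPKM, a limit that covers counting error only. Endothelial markers (12 genes, led by Cldn5) summed to 1100 to 1490 FPKM in WT and 965 to 1310 FPKM in KO, and pericyte markers (10 genes, led by Vtn) summed to 869 to 1390 FPKM and 909 to 1030 FPKM. Markers of other cells were present too, and no gene of the 12 marker lists was at 0 in all libraries. The lists whose sums were lower in KO without overlap included those of astrocytes (599 to 711 FPKM in WT, 467 to 505 FPKM in KO, led by Gja1) and fibroblasts (1200 to 1810 FPKM and 800 to 1100 FPKM, led by Col1a1), and not every such list is given here. Choroid plexus markers (led by Ttr) stood at 8820 and 10500 FPKM in KO 1 and KO 3, against 2890 to 3360 FPKM in the other libraries.

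All 9 members were detected in every library, and the most abundant was Notch3, with a mean of 25.7 FPKM over the 6 libraries. Jag2 followed at 23.6 FPKM. Notch1 (13.6 FPKM), Notch2 (13.3 FPKM), Notch4 (11.8 FPKM), Dll4 (11.5 FPKM) and Jag1 (10.2 FPKM) formed a middle group, and Dll1 (2.21 FPKM) and Dll3 (0.698 FPKM) were lowest. Notch3 ranked first in 5 libraries and behind Jag2 in KO 2. Among the tested genes of a library, Notch3 lay between the 76.4th and 81.5th percentiles of expression, Notch1 between the 50.5th and 70.1st, and Dll1 between the 5.3rd and 19.6th.

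**Figure D1:**
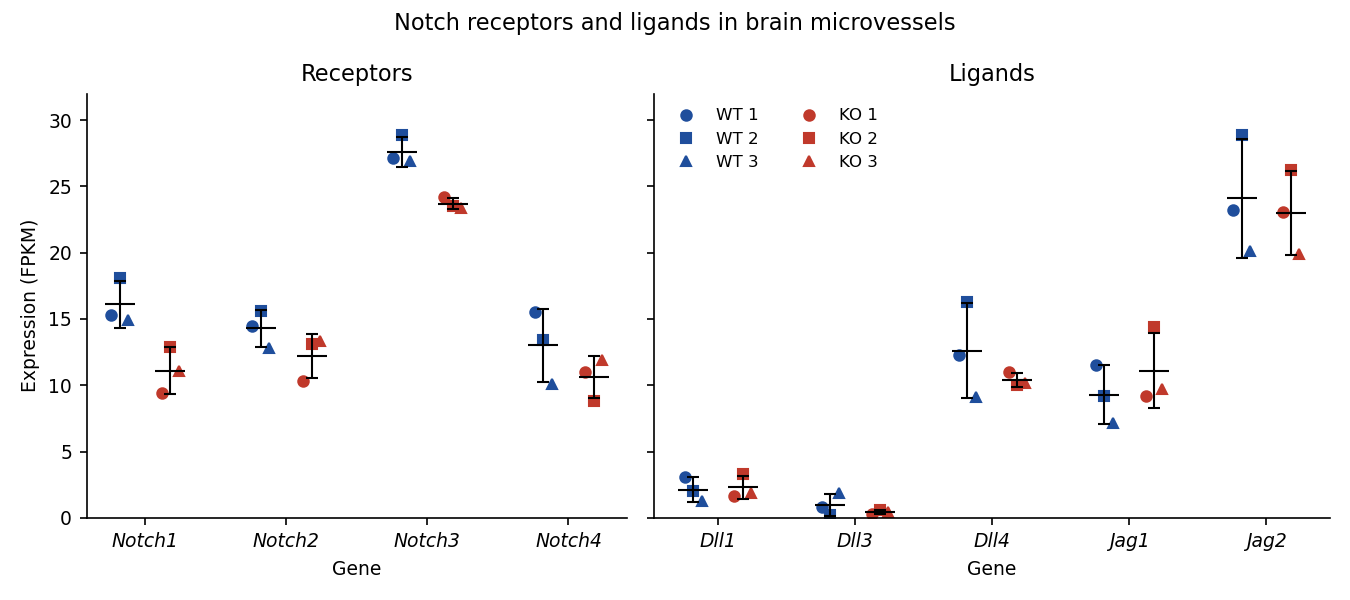
FPKM of the 4 Notch receptors and 5 ligands in each library (linear axis), with 1 point per mouse, WT in blue and KO in red, and black marks for the mean and SD of each group of 3. Notch3 and Jag2 sit highest, Dll1 and Dll3 lowest, and only Notch1 and Notch3 have all 3 KO points below all 3 WT points.

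Paralogues were compared within each library, where scaling between libraries plays little part, with an exact two-sided sign-flip permutation test over the 6 libraries, whose smallest p is 0.0312. Of the 16 pairs, 11 differed after adjustment over the pairs, and all 11 reached that smallest p (adjusted p = 0.0455). Among the receptors, Notch3 exceeded Notch1 by 1.89-fold, Notch2 by 1.94-fold and Notch4 by 2.18-fold in mean FPKM, and it was the higher gene in 6 of 6 libraries each time. Notch1, Notch2 and Notch4 could not be placed in order. Notch1 minus Notch2 was 0.02 ± 0.18 in log2(FPKM + 1) (SD, n = 6, exact permutation p = 0.812), Notch1 minus Notch4 was 0.19 ± 0.33 (exact permutation p = 0.25, adjusted p = 0.286), and Notch2 minus Notch4 was 0.17 ± 0.24 (exact permutation p = 0.156, adjusted p = 0.192).

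8 of the 10 ligand pairs differed. Jag2 exceeded Jag1 by 2.31-fold and Dll4 by 2.05-fold in mean FPKM, and it stood 10.7-fold above Dll1 and 33.8-fold above Dll3. Dll4 exceeded Dll1 by 5.2-fold and Dll3 by 16.5-fold. Jag1 exceeded Dll1 by 4.62-fold and Dll3 by 14.6-fold. The neighbors Dll4 and Jag1 did not differ beyond their spread (0.16 ± 0.40 in log2(FPKM + 1), SD, n = 6, exact permutation p = 0.406, adjusted p = 0.433), nor did Dll1 and Dll3 (0.94 ± 0.64, exact permutation p = 0.0625, adjusted p = 0.0833). Levels of receptors were not tested against levels of ligands within libraries. The ratio of Jag1 to Notch1, given as a description, was 0.753, 0.509 and 0.481 in WT and 0.981, 1.12 and 0.875 in KO, without overlap (exact permutation p = 0.1, the smallest possible). It is 1 of several ratios looked at, and Notch1 by itself also separated the groups. The ratio of Dll4 to Notch1 overlapped between the groups, at 0.804, 0.898 and 0.611 in WT and 1.17, 0.778 and 0.92 in KO, as did the ratio of summed receptors to summed ligands, at 1.42, 1.34 and 1.64 in WT and 1.21, 1.07 and 1.42 in KO.

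Notch1 and Notch3 were the members whose 3 KO libraries all lay below the 3 WT libraries, and no member lay wholly above. Notch1 is the receptor most studied in endothelial cells, and its gene lies on the minus strand of chromosome 2 (GRCm38, 26457903 to 26516663), with 34 exons in its longest transcript of 9488 bases. Its FPKM was 15.3, 18.1 and 14.9 in WT and 9.39, 12.9 and 11.1 in KO. The highest KO library was below the lowest WT library. The mean was 16.1 ± 1.75 FPKM in WT and 11.1 ± 1.75 FPKM in KO (SD, n = 3 each, exact permutation p = 0.1), so KO stood at 69.1% of WT, 1.45-fold lower. The log2 fold change was −0.50 (SE 0.21, 95% interval −0.97 to −0.03), with an unadjusted limma p under 0.05 and an adjusted p of 0.841, so it did not pass after adjustment. An estimated 718 to 1679 fragments per library lay behind these values. In bulk microvessels, fewer cells that express Notch1 and less Notch1 RNA per cell cannot be told apart. Summed markers of other cell types, those of astrocytes and fibroblasts among them, were also lower in KO. The 2 lowest Notch1 libraries, KO 1 and KO 3, were those with the high choroid plexus sums of 8820 and 10500 FPKM, while KO 2 had 2970 FPKM. The part of these cell types in the Notch1 difference was not tested.

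The unadjusted limma p of Notch1 did not stay under 0.05 when most single libraries were left out, nor under several models. Without KO 2, the shallowest library, the log2 fold change was −0.60 and the unadjusted p stayed under 0.05. Leaving out WT 1, WT 2 or WT 3 gave −0.53, −0.42 and −0.55, and leaving out KO 1 or KO 3 gave −0.39 and −0.50, each with an unadjusted p above 0.05. The standard error was 0.24 to 0.26 in these fits, against 0.21 with all 6 libraries. With all 6 libraries kept, the unadjusted p was also above 0.05 without the trended prior (−0.50), with the replicate number as a block (−0.50), after correction for GC content (−0.36, with or without that block) and after correction for GC content and length (−0.30). Over 17 alternative settings the estimate stayed between −0.60 and −0.30, the unadjusted p was under 0.05 in 7, and the adjusted p ran from 0.283 to 1.

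**Figure D2:**
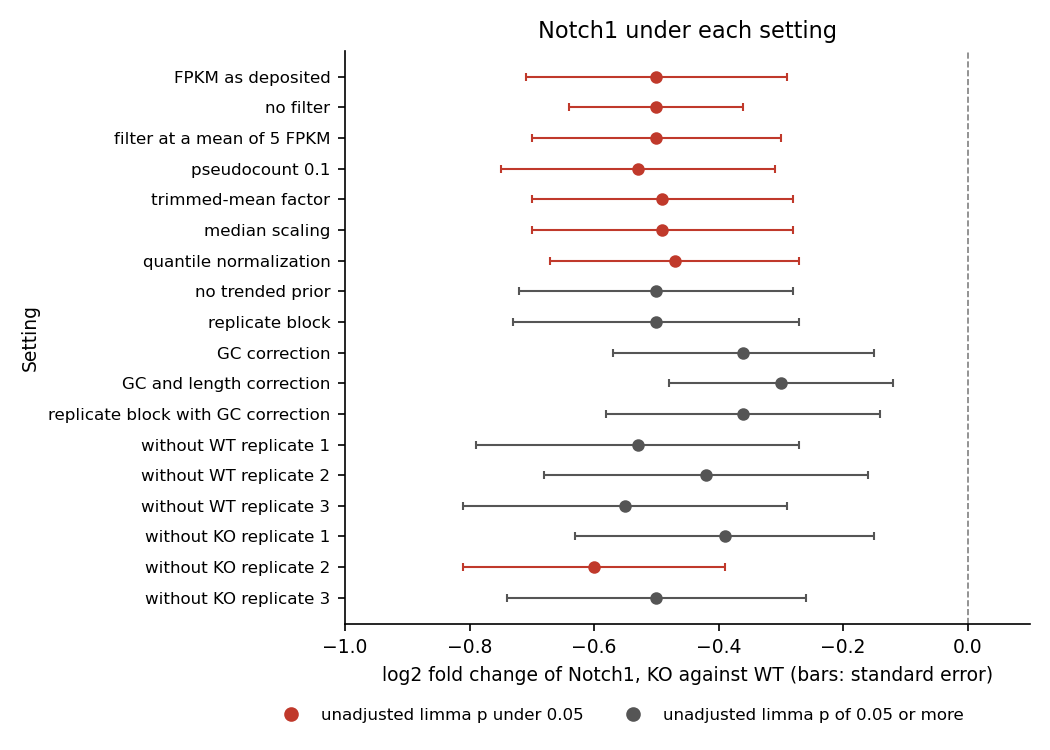
Log2 fold change of Notch1, KO against WT, as deposited and under each of 17 alternative settings, with bars for the standard error and red for an unadjusted limma p under 0.05. Every estimate lies below 0, between −0.60 and −0.30, and 7 of the 17 alternatives are red.

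Notch3, the receptor known from vascular mural cells, lies on the minus strand of chromosome 17 (32120820 to 32166852) and has 33 exons. Its FPKM was 27.1, 28.9 and 26.9 in WT and 24.2, 23.5 and 23.4 in KO. The groups did not overlap, and the spread within each was small, with means of 27.6 ± 1.12 FPKM and 23.7 ± 0.446 FPKM (SD, n = 3 each, exact permutation p = 0.1). KO stood at 85.9% of WT, and the log2 fold change was −0.21 (SE 0.18, 95% interval −0.61 to 0.19, limma adjusted p = 0.89). After correction for GC content the groups overlapped and the estimate was −0.04, and after correction for GC content and length it was 0.03. Set against the mean of the pericyte markers in the same library, Notch3 differed between KO and WT by 0.01 on the log2 scale (exact permutation p = 1). Set against the mean of the smooth muscle markers, it differed by −0.65, with overlapping groups (exact permutation p = 0.3). The pericyte list held 8 of 10 genes below 0 (50.8% of all tested genes were below 0), with Anpep and Cspg4 lower at an unadjusted limma p under 0.05 (3.11% of all tested genes), and none passed after adjustment. Smooth muscle markers (7 genes, led by Acta2) summed to 271 to 608 FPKM in WT and 294 to 817 FPKM in KO, and overlapped, with 0 of 7 below 0.

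Notch2 and Notch4 overlapped between the groups. Notch2, a broadly expressed receptor encoded on the plus strand of chromosome 3 (98013527 to 98150361, 34 exons), was at 14.5, 15.6 and 12.8 FPKM in WT and at 10.3, 13.1 and 13.3 FPKM in KO. Only KO 1 lay below the WT range, and the log2 fold change was −0.21 (SE 0.21, 95% interval −0.67 to 0.25, limma adjusted p = 0.917). Notch4, a receptor largely restricted to endothelium, is encoded on the plus strand of chromosome 17 (34564268 to 34588503, 30 exons). It was at 15.5, 13.4 and 10.1 FPKM in WT and at 11.0, 8.81 and 11.9 FPKM in KO. WT 3 lay below 2 of the KO libraries, and the log2 fold change was −0.26 (SE 0.23, 95% interval −0.78 to 0.25, limma adjusted p = 0.899). These intervals include both no difference and differences as large as that of Notch1.

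The promoters of the 4 receptors are shown because all 4 estimates lay below 0. Each window holds the 250 bases before the RefSeq transcript start (GRCm38.p6), read 5′ to 3′ on the gene's strand, with GGGCGG or its reverse complement CCGCCC, the GC box bound by factors of the Sp family, in capitals. All 9 members were matched to a window by symbol. The Notch1 window lies inside the GENCODE span of the gene, which begins further upstream.
Notch1, chr2:26503823-26504072, minus strand: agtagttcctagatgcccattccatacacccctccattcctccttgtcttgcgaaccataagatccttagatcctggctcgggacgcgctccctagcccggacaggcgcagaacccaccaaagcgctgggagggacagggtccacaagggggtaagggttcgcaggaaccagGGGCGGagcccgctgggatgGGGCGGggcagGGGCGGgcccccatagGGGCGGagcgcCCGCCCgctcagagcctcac
Notch2, chr3:98013288-98013537, plus strand: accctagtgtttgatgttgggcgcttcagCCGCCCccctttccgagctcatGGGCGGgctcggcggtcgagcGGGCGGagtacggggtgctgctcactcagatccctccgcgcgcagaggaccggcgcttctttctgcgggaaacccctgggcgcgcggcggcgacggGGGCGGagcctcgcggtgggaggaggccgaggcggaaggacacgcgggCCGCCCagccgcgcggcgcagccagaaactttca
Notch3, chr17:32166891-32167140, minus strand: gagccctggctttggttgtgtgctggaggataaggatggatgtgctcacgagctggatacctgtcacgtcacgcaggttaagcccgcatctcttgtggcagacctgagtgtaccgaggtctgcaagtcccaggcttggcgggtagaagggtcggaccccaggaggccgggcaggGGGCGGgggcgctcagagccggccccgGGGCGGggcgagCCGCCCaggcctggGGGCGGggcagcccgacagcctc
Notch4, chr17:34564045-34564294, plus strand: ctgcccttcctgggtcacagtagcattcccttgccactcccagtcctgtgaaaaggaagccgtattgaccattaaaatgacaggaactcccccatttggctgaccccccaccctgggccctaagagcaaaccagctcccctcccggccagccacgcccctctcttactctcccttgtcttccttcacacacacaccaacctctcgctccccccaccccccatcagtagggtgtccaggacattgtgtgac
GC boxes were counted on both strands, overlapping matches included. The Notch1 and Notch2 windows each held 5, the Notch3 window 4 and the Notch4 window none. Among the ligands, the windows of Jag2 held 5, Dll4 2 and Dll3 1, and those of Jag1 and Dll1 (which has 2 windows) held none, so 6 of the 9 members had a GC box against 32.7% of all 32851 promoter windows of the same length. The core of the RBPJ motif, TGGGAA or its reverse complement, was in 0 of the 10 member windows and in 21.6% of all windows. TATAAA on either strand was in none of the member windows and in 12.4% of all windows. The GC content of the windows was 66.0% for Notch1, 72.0% for Notch2, 68.8% for Notch3 and 58.4% for Notch4, against a median of 52.4% over all windows, and that of Jag2 reached 87.2%. A match or its absence describes these letters in these windows and nothing about binding.

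The ligands showed no common direction. Jag1, encoded on the minus strand of chromosome 2 (137081456 to 137116644, 26 exons), was at 11.5, 9.22 and 7.16 FPKM in WT and at 9.21, 14.4 and 9.73 FPKM in KO. KO 2 was the highest library and WT 3 the lowest, and the groups overlapped. The means were 9.30 ± 2.19 FPKM in WT and 11.1 ± 2.85 FPKM in KO (SD, n = 3 each, exact permutation p = 0.5). Its estimated log2 fold change was 0.23 (SE 0.25, 95% interval −0.34 to 0.80, limma adjusted p = 0.929).

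Jag2, the other Jagged ligand and the most abundant ligand here, lies on the minus strand of chromosome 12 (112907819 to 112929776, 26 exons). It was at 23.2, 28.9 and 20.1 FPKM in WT and at 23.1, 26.2 and 19.9 FPKM in KO. The ranges largely overlapped, and the log2 fold change was −0.06 (SE 0.21, 95% interval −0.53 to 0.42, limma adjusted p = 0.981).

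Dll4, the Delta-like ligand that restrains vessel sprouting, lies on the plus strand of chromosome 2 (119325784 to 119335962, 11 exons). Its FPKM was 12.3, 16.3 and 9.08 in WT and 11.0, 10.03 and 10.2 in KO. All 3 KO libraries lay inside the WT range, which was the wider (12.6 ± 3.60 FPKM against 10.4 ± 0.527 FPKM, SD, n = 3 each, exact permutation p = 0.4). Its estimated log2 fold change was −0.21 (SE 0.24, 95% interval −0.75 to 0.32, limma adjusted p = 0.929). Gm14207, a transcript on the opposite strand that shares 411 bases with the Dll4 gene, was listed at 0.935 to 3.75 FPKM. Arterial markers (9 genes, led by Gja4) summed to 267 to 294 FPKM in WT and 246 to 308 FPKM in KO, and overlapped.

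Dll1 and Dll3 were the low members. Dll1, a Delta-like ligand of neural progenitors and arterial endothelium, is encoded on the minus strand of chromosome 17 (15367354 to 15376872, 11 exons) and was at 3.11, 1.99 and 1.29 FPKM in WT and at 1.68, 3.32 and 1.86 FPKM in KO. The groups overlapped, and the log2 fold change was 0.08 (SE 0.36, 95% interval −0.72 to 0.87, limma adjusted p = 0.986), the widest interval among the tested members. Dll3, a divergent family member that acts inside the cell that makes it and does not activate Notch on neighbors, is encoded on the minus strand of chromosome 7 (28293553 to 28302238, 9 exons). It was at 0.821, 0.212 and 1.84 FPKM in WT and at 0.295, 0.582 and 0.438 FPKM in KO. These values rested on an estimated 25, 5 and 56 fragments in WT and 6, 10 and 14 in KO, and the groups overlapped (exact permutation p = 0.4). The WT libraries alone ran from 5 to 56 fragments, so the spread between WT mice was wide.

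**Figure D3:**
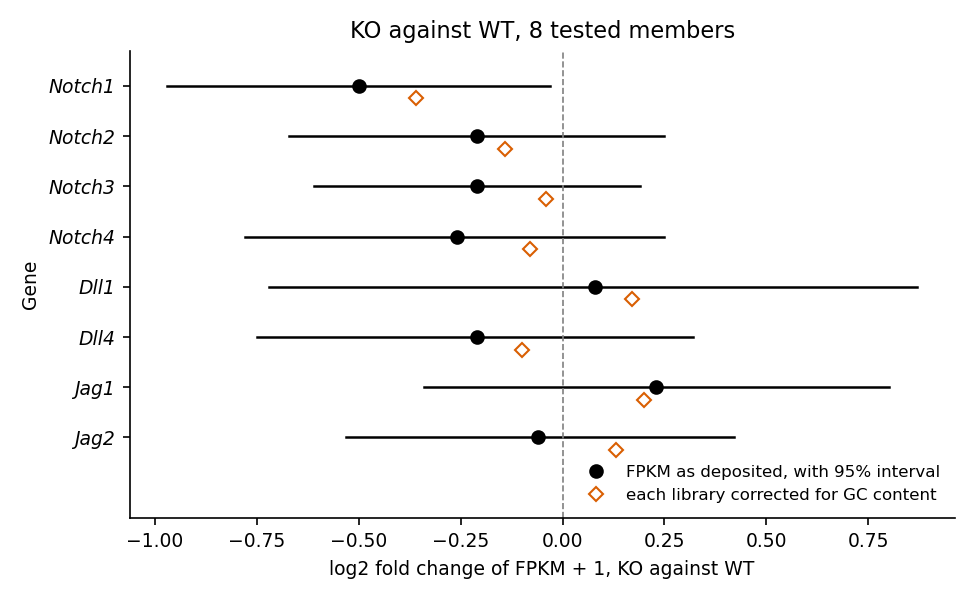
Log2 fold change, KO against WT, of each tested member on the log2(FPKM + 1) scale, with black points for FPKM as deposited, bars for their 95% interval from limma, and open diamonds for the estimates after each library was corrected for GC content. Among the black points, the 4 receptors and Dll4 and Jag2 lie below 0, Jag1 and Dll1 above, and the interval of Notch1 alone excludes 0. The diamond of Notch1 is at −0.36.

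Counts over the members were read against all tested genes. 1 of the 8 tested members, Notch1, had an unadjusted limma p under 0.05 and was lower, against 3.11% of the 14247 genes, and none was higher at that threshold, against 2.77%. Across all genes 838 had an unadjusted p under 0.05, and after adjustment 0 genes (0%) passed in the limma fit, with a smallest adjusted p of 0.841. Groups did not overlap for 2 of the 9 members, both lower in KO, against 5.7% of tested genes, and for none in the higher direction, against 5.37%. The log2 fold change was below 0 for 6 of the 8 tested members, with a median of −0.21, and for 50.8% of all tested genes, with a median of −0.01. By role, the median was −0.24 over the 4 receptors and 0.01 over the 4 tested ligands, 2 of which were below 0.

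The receptors together summed to 72.5, 76.0 and 64.6 FPKM in WT and to 55.0, 58.4 and 59.8 FPKM in KO, and the ligands to 51.0, 56.6 and 39.5 FPKM and to 45.3, 54.5 and 42.1 FPKM. The receptor sums did not overlap (exact permutation p = 0.1, the smallest possible), and the ligand sums did (exact permutation p = 0.9). Notch1 and Notch3, which did not overlap on their own, are part of the receptor sums. The makeup of each family was then compared as the share of each member in the summed FPKM of its family, which scaling between libraries does not move. Notch3 held 37.4% to 41.6% of the receptor total in WT and 39.2% to 44.1% in KO. Notch1 held 21.1%, 23.8% and 23.0% in WT and 17.1%, 22.1% and 18.6% in KO, with means of 22.7% and 19.3% (exact permutation p = 0.2). KO 2 lay inside the WT range of Notch1. Jag2 held 49.2% of the ligand total in WT and 48.7% in KO on average, Dll4 25.3% and 22.3%, and Jag1 19.0% and 23.3% (exact permutation p = 0.2 for Jag1). The groups overlapped for the shares of all 9 members.

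**Figure D4:**
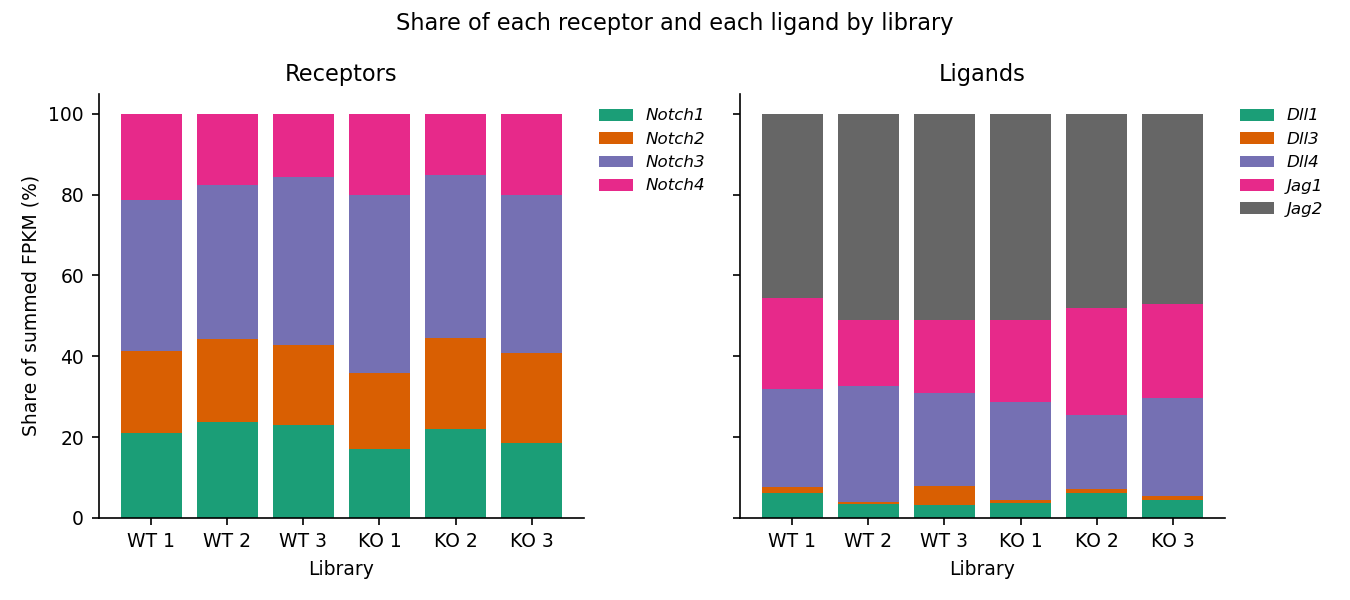
Share of each member in the summed FPKM of the 4 receptors and of the 5 ligands, per library, as stacked bars in percent. Notch3 makes up 37.4% to 44.1% of the receptors and Jag2 is the largest ligand share in every library, and the bars of WT and KO libraries overlap for every member.

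Within a library, 2 of the 16 paralogue differences separated the genotypes. Notch1 minus Notch2 was 0.07, 0.21 and 0.20 in log2(FPKM + 1) in WT and −0.12, −0.03 and −0.24 in KO. Thus Notch1 was the higher of the 2 in every WT library and the lower in every KO library (exact permutation p = 0.1, adjusted p = 0.8 over the 16 pairs). Notch1 minus Notch3 was −0.79, −0.65 and −0.81 in WT and −1.28, −0.82 and −1.01 in KO, again without overlap (exact permutation p = 0.1, adjusted p = 0.8). The exact test cannot go below 0.1 with 3 mice against 3.

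Levels were also set against the endothelial markers of the same library, as log2(FPKM + 1) minus the mean of the 12 genes. On this scale the groups overlapped for all 9 members, while 1.8% of all tested genes were lower and 10.5% higher without overlap. The difference between KO and WT was −0.33 for Notch1 and 0.40 for Jag1 (exact permutation p = 0.2 for both), and it ran from −0.20 to 0.24 for the other 7. Notch1 was at −2.23, −1.93 and −1.93 relative to these markers in WT and at −2.68, −1.98 and −2.43 in KO, so that KO 2 lay inside the WT range. Against the 9 arterial markers instead, the groups overlapped for 8 members and did not for Notch4, which was at −0.86, −0.93 and −0.97 in WT and at −1.24, −1.21 and −1.07 in KO (exact permutation p = 0.1). On that scale 4.41% of all tested genes were lower without overlap. This was the 1 separation among 36 comparisons of the 9 members with the endothelial, pericyte, smooth muscle and arterial lists, and Notch4 overlapped against the other 3 lists (exact permutation p = 0.3, 0.9 and 0.2). 1 of the 12 endothelial markers in this mean, Cdh5, was lower at an unadjusted limma p under 0.05 (adjusted p = 0.841), at a log2 fold change of −1.03, against 3.11% of all tested genes lower at that threshold.

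Fold changes over all genes moved with the GC content of the transcript. When the genes were split into 5 groups of equal size by GC content, the median log2 fold change went from 0.16 in the lowest group to −0.18 in the highest, and the highest group held 206 genes that were lower and 35 that were higher at an unadjusted p under 0.05. 5 of the 8 tested members (Notch1, Notch3, Notch4, Dll4 and Jag2) were in that group, in which 7.27% of genes were lower at this threshold. The trend over all genes was −0.14 at the GC content of Notch1 (57.11%), −0.17 at that of Notch3 (59.58%) and −0.18 at that of Notch4 (61.24%). After such a trend was removed from each library, Notch1 was at −0.36 (limma adjusted p = 0.996) and its groups still did not overlap. Notch3 was then at −0.04 with overlapping groups, Notch4 at −0.08, Notch2 at −0.14, Dll4 at −0.10, Jag2 at 0.13, Dll1 at 0.17 and Jag1 at 0.20.

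**Figure D5:**
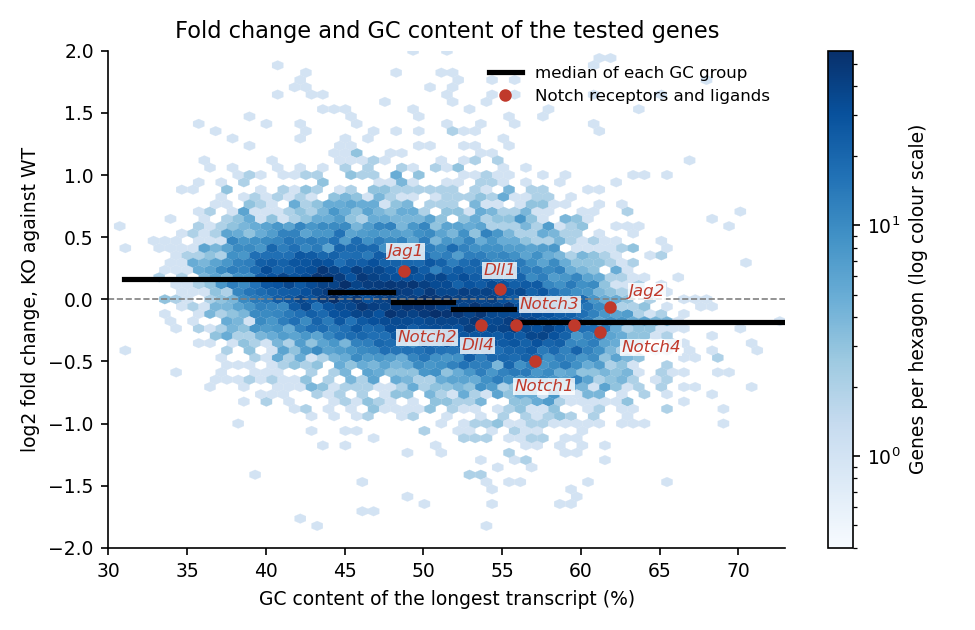
Log2 fold change, KO against WT, of the tested genes against the GC content of the longest transcript, with gene density in blue (log color scale), the median of each of the 5 GC groups as a black line and the tested members in red. The medians go from 0.16 to −0.18 with rising GC content, Notch1 lies below the line of its group, and 32 of 14166 genes lie outside the plotted range.

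The remaining pathway was followed over 57 genes in 4 lists, all of which were tested. Of these, 3 had an unadjusted limma p under 0.05, 2 lower (background 3.11%) and 1 higher (background 2.77%), and 0 passed after adjustment. The median log2 fold change was −0.05, with 34 genes below 0. Among 29 genes that process receptors and ligands or control their turnover, the most abundant were Psenen (70.5 FPKM over the 6 libraries) and Aph1a (48.6 FPKM), both subunits of γ-secretase, and Dtx3 (58.8 FPKM), a ubiquitin ligase of the Deltex family. Their log2 fold changes were 0.22, 0.06 and −0.02, and no p was under 0.05.

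The 2 lower genes of the pathway were regulators of the receptors. Dtx1, a Deltex ubiquitin ligase that binds the Notch intracellular domain, was at 16.9, 18.5 and 23.1 FPKM in WT and at 13.0, 13.8 and 10.5 FPKM in KO. The groups did not overlap, and the log2 fold change was −0.60 (SE 0.21, limma adjusted p = 0.841). Numbl, a relative of the Notch inhibitor Numb, was at 15.3, 20.9 and 23.2 FPKM in WT and at 12, 15.7 and 11.0 FPKM in KO, where KO 2 exceeded WT 1, and its log2 fold change was −0.58 (limma adjusted p = 0.841).

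In the nuclear complex, 0 of 11 genes had an unadjusted p under 0.05, and the median log2 fold change was 0.03. The most abundant were Fbxw7 (59.2 FPKM), which marks the Notch intracellular domain for degradation, the deacetylase Hdac1 (44.8 FPKM) and the coregulator Snw1 (43.9 FPKM), with log2 fold changes of 0.15, 0.00 and 0.29. The coactivators Maml3 (log2 fold change −0.51) and Ep300 (−0.29), named here after their values were seen, were lower in KO without overlap.

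Among 11 other proteins that bind Notch receptors, the most abundant were Ybx1 (256 FPKM), Nov (95.2 FPKM) and Mfap2 (66.4 FPKM), with log2 fold changes of −0.10, −0.43 and −0.35 and no p under 0.05. Cntn1, a neural adhesion protein, was at 17.9, 19.0 and 31.3 FPKM in WT and at 32.7, 41.7 and 35.8 FPKM in KO. Every KO library exceeded every WT library, and the log2 fold change was 0.71 (SE 0.24, limma adjusted p = 0.841). Summed neuron markers (9 genes, led by Stmn1) overlapped, at 367 to 713 FPKM in WT and 320 to 589 FPKM in KO, and 7 of the 9 were below 0.

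The 6 classic target genes, which are read as an output of Notch signaling, had no p under 0.05 and no groups apart. Hey1 was highest at 21.8 FPKM over the 6 libraries, followed by Heyl at 18.1 FPKM and Nrarp, a feedback inhibitor, at 16.9 FPKM. Their log2 fold changes were 0.21 (95% interval −0.25 to 0.66), −0.16 (−0.66 to 0.34) and 0.01 (−0.43 to 0.45). The other 3, given to complete the list, were at −0.17 for Hes1, −0.19 for Hes5 and 0.33 for Hey2.

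For each tested member, the 2 genes with the most similar profile over the 6 libraries were found among the 9952 other genes whose mean reached 5 FPKM, by the root mean square distance of log2(FPKM + 1) after centering each gene on its own mean. The nearest were 4931406P16Rik (0.05) and Bcl9l (0.076) for Notch1, Wdr60 (0.041) and Vars2 (0.047) for Notch2, Clcc1 (0.052) and Smarcc2 (0.053) for Notch3, and Hexim1 (0.053) and Clic4 (0.058) for Notch4. For the ligands they were Lysmd2 (0.066) and Kdm7a (0.084) for Dll1, Med15 (0.049) and Adamts9 (0.058) for Dll4, Hist3h2a (0.043) and Fam118a (0.063) for Jag1, and Slc40a1 (0.064) and Ube3c (0.07) for Jag2. These profiles share libraries, depth and 6 points, and the distances are descriptions.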

How the data were processed

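RNA sequencing of isolated cerebral microvessels was available from 3 WT and 3 TEKCRIF1 KO mice. TRIzol was used to extract RNA, and the NEBNext Ultra II Directional kit to make libraries. The authors trimmed the reads with FASTX_Trimmer and BBMap, mapped them with TopHat to mm10 (the build from the submitters' processing notes) and deposited a table of FPKM by gene symbol (23183 symbols) for each library. The counting tool, its annotation and whether it used strand are not given in the sources used here, and Notch1, Notch3, Notch4, Dll1 and Dll4 overlap a gene on the opposite strand. The authors named DESeq2 for differential expression. Read counts were not used here.

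The labelled genotype gave the groups. limma 3.58.1 (R 4.3.3) was run on log2(FPKM + 1) with a trended prior for genes whose mean reached 1 FPKM, without scaling between libraries. Adjustment was by Benjamini-Hochberg. Single values were compared with exact two-sided permutation tests. GC content, length and exons came from the longest transcript in GENCODE M21 (GRCm38), and loess (span 0.3) removed trends. Promoter windows came from RefSeq (GRCm38.p6). Depth was estimated from the spacing of low FPKM values, and relative depths fitted the 15 pairs of libraries within 0.002 on the log2 scale. The absolute scale depends on annotated lengths, so depths are approximate. The fit was tested on simulated data. 17 alternatives were tried, covering filters, the pseudocount, scaling, the prior, a replicate block, GC and length corrections, and each library left out.

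Members and lists were chosen with earlier results of these data known. By the rule for names, the text gives the 9 members, Gadd45gip1, the 3 most abundant genes of each pathway list and those with an unadjusted p under 0.05, the most abundant gene of a marker list where it is named, and the 2 nearest profiles of each member. Maml3 and Ep300, the other genes of the target list, marker genes with an unadjusted p under 0.05 and Gm14207 were named after their values were seen. Some results on marker and pathway genes are not reported here.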

Additional observations from a re-analysis of the deposited data

How the results depend on the processing

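No member passed after adjustment under any alternative, and the estimates of Notch1, Notch2, Notch4, Dll4 and Jag1 kept their sign under all of them. With 1 library left out, Notch2 ranged from −0.28 to −0.10 (without KO 1), Notch4 from −0.42 (without WT 3) to −0.13 (without WT 1), Dll4 from −0.41 (without WT 3) to −0.02 (without WT 2) and Jag1 from 0.04 (without KO 2) to 0.38 (without WT 1), and Notch4 was −0.01 with the GC and length correction. The estimate of Notch3 was 0.03 with the GC and length correction, that of Dll1 −0.13 without WT 3 and −0.14 without KO 2 (range with 1 library left out −0.14 to 0.29), and that of Jag2 0.13 with the GC correction, 0.19 with GC and length, 0.13 with the replicate block and GC correction, 0.08 without WT 2 and 0.04 without KO 3 (range −0.17 to 0.08). The cause was not tested.

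Members with an unadjusted limma p under 0.05 (1 as reported) numbered 2 with no filter, where Notch3 joined Notch1, and 0 with no trended prior, with either GC correction, with the replicate block or with the block and GC correction, and 0 to 1 with 1 library left out. With no filter, 622 of 23183 genes were lower at that threshold. Members without overlap (2) numbered 1 under either GC correction and 2 to 5 with 1 library left out, the 5 being without WT 3 (the 4 receptors and Dll4, all lower, where 11.4% of tested genes were lower without overlap, against 5.7% with all libraries). That share ran from 8.87% (without WT 2) to 14.4% (without KO 2) with 1 library left out, and was 5.31% after GC correction alone. Members with separated shares (0) numbered 1 with GC and length (Dll4) and 0 to 3 with 1 library left out, 3 without WT 1. Members separated relative to endothelial markers (0) numbered 1 with quantile normalization (Jag1), 2 with GC and length (Notch3 and Jag2) and 0 to 2 with 1 library left out, 2 without WT 1. The share of all tested genes on that scale is not given here for these settings.

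Pathway genes with an unadjusted p under 0.05 (3) numbered 6 with no filter and 1 (without WT 2) to 7 (without KO 2). Over all genes the 838 became 451 (without WT 2) to 1865 (without KO 2), and adjusted calls (0) numbered 1 with no filter and 0 to 6, with 6 without KO 2. The split of 443 lower and 395 higher became 323 and 356 after GC correction and 305 and 421 with the replicate block and GC correction. Same-numbered libraries did not deviate together (correlations 0.04, 0.03 and 0.00). So few pairs cannot settle whether the replicate numbers of the sample titles pair the mice. The column headers carry other numbers, of which WT 2 and KO 3 share 1, and their deviations correlated at −0.05. The paralogue test was not run with a library left out, since 5 libraries cannot reach a p under 0.05. The lowest depth lay behind Dll3 (5 to 56 estimated fragments) and Dll1 (48 to 129), whose values also varied most between mice of a group, relative to their mean.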
